A study of Callithrix jacchus with 6 samples.

Results

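Astrocytes of the hippocampus of aged common marmosets (Callithrix jacchus) were described here as 4666 of the 46582 cell barcodes in 6 single-cell RNA-seq libraries. A barcode was taken as an astrocyte when at least 4 of the 7 genes SLC1A2, SLC1A3, GLI3, ALDH1L1, ACSBG1, NWD1 and SLC4A4 were detected, when their summed UMIs (unique molecular identifiers, each standing for 1 captured RNA molecule) made up at least 30 per 10000 of its UMIs, and when it held at most 1 UMI of MOG, OPALIN, PDGFRA, GAD2 and SLC17A7 together. The 3 sevoflurane libraries came from hippocampi after 6 h of sevoflurane, a volatile general anaesthetic, and the 3 control libraries from hippocampi after 6 h of oxygen alone. Tissue was digested with collagenase, frozen as a cell suspension and thawed for droplet sequencing of RNA 3′ ends. The labels give no genotype, sex, exact age or animal for a library and do not say that replicates are separate animals, so p-values below measure the spread between libraries, which may be technical.

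Astrocytes are the glial cells that clear glutamate and potassium from around synapses, supply neurons with metabolic substrates, secrete matrix and synapse-modulating proteins and cover blood vessels with their endfeet. They carry glucocorticoid receptors, and after injury or inflammation they raise intermediate filaments such as GFAP and matrix proteins such as tenascin-C, a state called reactive. Volatile anaesthetics act on ion channels and on receptors for GABA and glutamate that neurons and astrocytes share.

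Sevoflurane libraries 1, 2 and 3 held 654, 501 and 533 astrocytes, and control libraries 1, 2 and 3 held 809, 930 and 1239. The astrocytes of a library summed to between 1386966 and 3649626 UMIs, with a median per cell of 2357 to 3121 UMIs. Pairs of libraries had 13 to 27 barcode sequences in common, and 2 astrocyte barcodes were among them, 1 in each of 2 pairs. Sevoflurane library 3 stood apart: its astrocyte profile correlated with those of the other 5 libraries at r = 0.920 to 0.944 over genes, whereas all pairs among those 5 lay at 0.948 or higher.

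The label held against most markers that the rule did not use. Of 25 further astrocyte markers, 24 are in the files and all 24 had UMIs in the selected cells, at a summed level of 9936 CPM (UMIs of a gene scaled to the UMI total of the cells), against 1691 CPM in all other barcodes. AQP4, the water channel of astrocyte endfeet, stood at 91.0 CPM against 11.5 CPM, GFAP at 415 against 21.8 CPM, the gap-junction gene GJA1 at 57.8 against 2.89 CPM, and FGFR3 at 225 against 8.28 CPM. RYR3 went the other way, at 138 CPM against 695 CPM. GPC5 alone stood at 6041 CPM against 568 CPM, and at 3756 CPM in cells picked by markers of oligodendrocyte precursor cells. A few classical markers were nearly absent, with the connexin GJB6 at 0.731 CPM and the transcription factor SOX9 at 5.99 CPM. These levels compare cells chosen by their expression with the rest and are given with no test.

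Genes of other cell types were present at low levels. Summed over 10 microglia markers, sevoflurane astrocytes had 61.9 to 94.7 CPM and control astrocytes 44.5 to 83.6 CPM, and over 9 endothelial markers sevoflurane astrocytes had 30.6 to 44.0 CPM and control astrocytes 23.1 to 43.0 CPM. Glutamatergic neuron markers summed to 690 to 746 CPM in sevoflurane astrocytes and 624 to 837 CPM in control astrocytes. The largest parts of this sum were SNAP25 and SYT1, at 257 and 223 CPM over all astrocytes. These 2 genes are not particular to glutamatergic neurons, with 407 and 930 CPM in cells picked by GABAergic neuron markers. The sum of the 10 markers of oligodendrocyte precursor cells (OPC) was 1215 to 1451 CPM in sevoflurane astrocytes and 1482 to 1624 CPM in control astrocytes, so these groups did not overlap (exact permutation test, two-sided p = 0.1). The GABAergic neuron markers did not overlap either, at 102 to 131 CPM in sevoflurane and 145 to 166 CPM in control astrocytes (exact permutation test, two-sided p = 0.1). The OPC sum is mostly PTPRZ1, which astrocytes also express and which had 1028 to 1277 CPM in sevoflurane and 1256 to 1429 CPM in control astrocytes. The OPC receptor PDGFRA, limited by the rule itself, had 2.60 to 3.83 CPM in sevoflurane and 1.41 to 4.11 CPM in control astrocytes, and OLIG1 and SLC32A1, the vesicular GABA transporter, were at 0 in all libraries. The ependymal markers, most of them cilia genes, summed to 575, 890 and 269 CPM in sevoflurane astrocytes and to 1047, 650 and 901 CPM in control astrocytes. With 3 libraries against 3 the smallest p this test can give is 0.1.

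The rule has sharp edges, and few barcodes lay near 2 of its 3 limits. Of the members, 353 had exactly 4 of the 7 genes, while 199 barcodes missed the rule with exactly 3. Between 30 and 35 UMIs of these genes per 10000 there were 50 members, and 58 barcodes fell just short, between 25 and 30. The third limit cut closer: 1561 members carried 1 UMI of the 5 excluded genes, 504 barcodes were left out for carrying 2, and 396 for carrying more.

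The 7 genes of the rule are described without a test, since they chose the cells. SLC1A2, the main glutamate transporter of astrocytes, stood at 10162, 10393 and 11125 CPM in sevoflurane libraries 1 to 3 and at 9998, 8601 and 10672 CPM in control libraries 1 to 3, and these ranges overlap. ALDH1L1, a folate enzyme used as an astrocyte marker, stood at 842, 676 and 840 CPM in sevoflurane astrocytes and at 536, 510 and 340 CPM in control astrocytes, with every sevoflurane library above every control library. NWD1 was the other rule gene without overlap, at 1252 to 1353 CPM in sevoflurane and 1369 to 1720 CPM in control astrocytes. SLC1A3, the second glutamate transporter, had 1756 to 2327 CPM in sevoflurane and 1748 to 2191 CPM in control astrocytes.

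Astrocytes made up a smaller share of the recovered barcodes in each sevoflurane library than in any control library. They were 7.63%, 6.84% and 7.504% of the barcodes in sevoflurane libraries 1, 2 and 3, and 9.82%, 13.0% and 15.2% in control libraries 1, 2 and 3. The means were 7.32 ± 0.425% in sevoflurane and 12.7 ± 2.69% in control libraries (SD, n = 3 each), a difference of -5.33 percentage points (exact permutation test, two-sided p = 0.1, the smallest possible). Counting error is small beside this: the exact Clopper-Pearson 95% interval was 7.07 to 8.21% for sevoflurane library 1, the highest of its group, and 9.19 to 10.5% for control library 1, the lowest of its group. Such intervals cover counting error only. Among 6 other cell sets picked by their own markers, no share separated the groups in this way (exact permutation tests, two-sided p between 0.2 and 1). Fewer astrocytes in the tissue and fewer recovered after digestion and freezing cannot be told apart in these data.

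**Figure D1:**
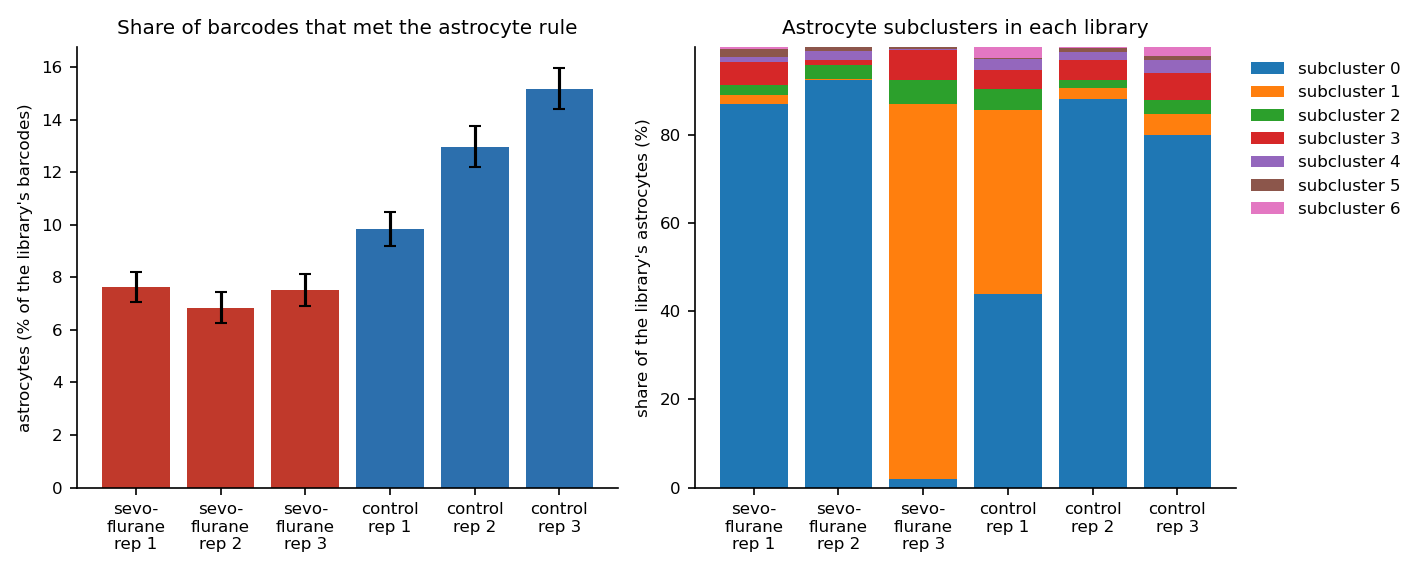
Left, the share of each library's barcodes that met the astrocyte rule, in percent, with exact 95% intervals; the 3 sevoflurane libraries lie between 6.84 and 7.63% and the 3 control libraries between 9.82 and 15.2%. Right, how the astrocytes of each library divide into 7 subclusters, in percent of that library's astrocytes; subcluster 1 fills most of sevoflurane library 3 and a large part of control library 1.

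Clustering of the 4666 cells gave 7 subclusters, numbered by no biological order and left unnamed. Subcluster 0 held 3212 cells, with ETV5, a transcription factor of growth-factor signalling, CHGB, a secretory granule protein, and EFHD1 among its leading genes. Subcluster 1 held 889 cells, led by LMOD1 and the homeobox gene MEIS1. These 2 subclusters had nearly equal sums of the astrocyte markers outside the rule, 10857 CPM in subcluster 0 and 10543 CPM in subcluster 1. They were spread very unevenly over libraries: subcluster 1 held 85.2% of the astrocytes of sevoflurane library 3 and 41.9% of those of control library 1, but between 0.200% and 4.76% in the other 4 libraries. Only 10 astrocytes of sevoflurane library 3 were in subcluster 0. The split follows libraries in both groups, and its part in the differences below was tested only by leaving libraries out and by looking within each subcluster.

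The smaller subclusters were of several kinds. Subcluster 3, with 227 cells, was led by PRR5L, the integrin ITGB4, SRPX2 and IGFBP7. Subcluster 6, with 49 cells, was led by TNC, at 673 CPM inside it and 21.0 CPM in the other astrocytes. It held 3, 0 and 0 cells of sevoflurane libraries 1, 2 and 3, and 20, 2 and 24 cells of control libraries 1, 2 and 3.

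Another 3 subclusters, with 289 cells or 6.19% of all members, were led by genes of other cell types. Subcluster 4 had 93 cells and 21391 CPM of the ependymal markers, subcluster 5 had 42 cells and 2797 CPM of the microglia markers, and subcluster 2 had 154 cells, 1615 CPM of the glutamatergic neuron markers and a median of 6852 UMIs. These 3 together made up 5.20 to 6.19% of the sevoflurane astrocytes and 4.52 to 7.54% of the control astrocytes of a library. Leaving them out kept the difference in the share of barcodes at -4.95 percentage points (exact permutation test, two-sided p = 0.1).

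The UMIs of all astrocytes of a library were summed, and 11490 genes were compared between 3 sevoflurane and 3 control sums with edgeR's quasi-likelihood test. TNC fell in sevoflurane astrocytes and no gene rose at an adjusted p under 0.05, so that 0.0087% of the genes tested were called. At an unadjusted p under 0.05 there were 732 genes, or 6.37%. DESeq2 on the same sums called 16 genes, or 0.139%, of which 7 were higher and 9 lower in sevoflurane astrocytes. The groups did not overlap for 688 genes with all sevoflurane libraries above all control libraries, or 5.99%, and for 644 genes with all below, or 5.6%. Counts without overlap in the gene lists below are to be read beside these 2 shares. The median log2 fold change over all genes was 0.0075. Without sevoflurane library 3, the library that stood apart, 1 gene was called, again TNC (log2 -3.62, edgeR adjusted p = 0.0102); the log2 fold change was then -2.13 for PDE3A, -0.60 for GFAP, -1.34 for NCAN, 0.998 for FKBP5 and 1.203 for IRS2, and the difference in the astrocyte share of barcodes was -5.42 percentage points.

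**Figure D2:**
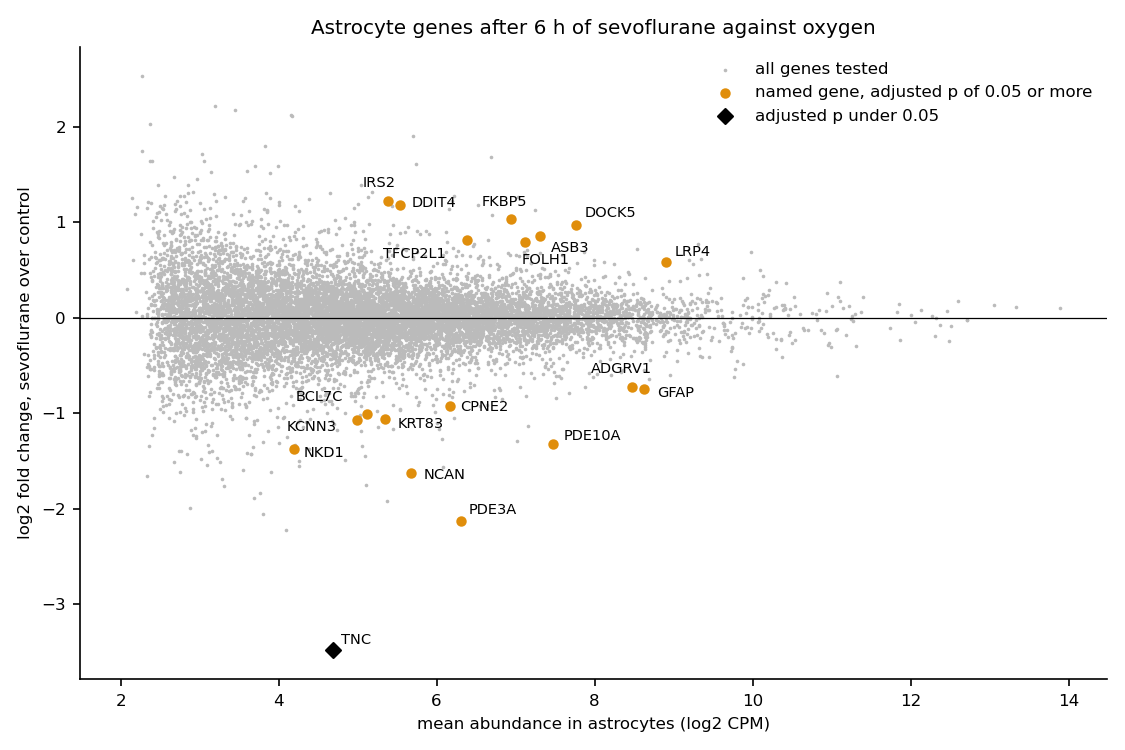
Each grey point is 1 of 11490 genes, by its mean level in astrocytes (horizontal, log2 CPM) and its log2 fold change, sevoflurane over control (vertical). TNC, at -3.48, is the only gene with an adjusted p under 0.05; the other named genes are orange, from PDE3A at -2.13 to IRS2 at 1.22.

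TNC encodes tenascin-C, a large matrix glycoprotein that astrocytes make during development and in reactive states. Its level was 2.19, 5.05 and 4.16 CPM in sevoflurane libraries 1, 2 and 3, from 4, 7 and 8 UMIs, and 46.4, 38.3 and 42.5 CPM in control libraries 1, 2 and 3. All 3 sevoflurane libraries lay far below all 3 control libraries. The log2 fold change was -3.48 ± 0.28 (SE), with an adjusted p of 0.00844 by edgeR.

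By value the difference was seen in both main subclusters. The sevoflurane levels there rest on few TNC UMIs, 0 and 5 in subcluster 0 and 2 in subcluster 1. In subcluster 0, TNC stood at 0 and 4.16 CPM in sevoflurane libraries 1 and 2, and at 23.4, 33.7 and 26.7 CPM in control libraries 1 to 3. In subcluster 1 it stood at 1.36 CPM in sevoflurane library 3, and at 47.3, 26.9 and 17.0 CPM in control libraries 1 to 3. Control libraries 2 and 3 gave this subcluster only 23 and 59 cells, so its levels there rest on few UMIs. Outside subcluster 6, which TNC itself leads, the level was 1.65, 5.05 and 4.16 CPM in sevoflurane libraries 1 to 3 and 34.97, 33.7 and 28.3 CPM in control libraries 1 to 3. Without sevoflurane library 3 and control library 1 together, the 2 libraries richest in subcluster 1, the log2 fold change of TNC was -3.55 (edgeR adjusted p = 0.0148).

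The TNC call was lost in 3 of the 6 omissions of a library. Its adjusted p by edgeR was 0.0573 without sevoflurane library 1, 0.0584 without control library 2 and 0.0829 without control library 3, while the log2 fold change lay between -3.68 and -3.20 over all 6 such omissions. Over all alternatives the adjusted p ran from 4.69e-12 by DESeq2 to 0.143 with replicate numbers as a block. In subcluster 0 alone, over 5 libraries, TNC did not pass either.

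Counted per cell, TNC was a minority signal even in controls. After thinning every cell to 1000 UMIs, which left out 22 sevoflurane and 28 control astrocytes that were too shallow, a TNC UMI was found in 0.465%, 0.808% and 0.570% of astrocytes of sevoflurane libraries 1, 2 and 3. The shares in control libraries 1, 2 and 3 were 4.61%, 3.46% and 3.28%. The means were 0.615 ± 0.176% in sevoflurane and 3.78 ± 0.723% in control libraries (SD, n = 3 each; exact permutation test, two-sided p = 0.1, the smallest possible). Without thinning the means were 1.17% in sevoflurane and 7.57% in control libraries. In cells picked by glutamatergic neuron markers, thinned to the same depth from a median of 7875 UMIs, 0 to 0.115% had a TNC UMI. The summed level of TNC in cells picked by oligodendrocyte markers was 0.241 to 0.584 CPM in sevoflurane and 0.584 to 0.760 CPM in control libraries. In cells picked by OPC markers it was 1.82, 2.65 and 2.11 CPM in sevoflurane libraries and 3.74, 0 and 1.67 CPM in control libraries. The part of free RNA in the TNC values was not tested.

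Of the matrix and synapse-modulating genes, 17 of 20 passed the filter on low counts, 1 fell (TNC) and none rose. Their median log2 fold change was -0.15, against 0.0075 over all genes, and 15 of the 17 values were negative. The groups did not overlap in 5 genes that were lower and 1 that was higher in sevoflurane astrocytes. NCAN, the chondroitin sulfate proteoglycan neurocan, stood at 25.2, 33.9 and 13.5 CPM in sevoflurane libraries 1 to 3 and at 66.5, 94.4 and 58.6 CPM in control libraries 1 to 3 (log2 -1.62 ± 0.31, edgeR adjusted p = 0.422). CSPG5, a second brain proteoglycan, had 152 to 195 CPM in sevoflurane and 223 to 326 CPM in control astrocytes (log2 -0.72 ± 0.16). GPC6, a glypican through which astrocytes act on forming synapses, had 216 to 243 CPM in sevoflurane and 313 to 376 CPM in control astrocytes (log2 -0.60 ± 0.13). The glypican GPC5 was the member that was higher without overlap, at 6052 to 6982 CPM in sevoflurane and 5686 to 5900 CPM in control astrocytes (log2 0.17 ± 0.11). Only TNC of these passed the test.

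Of the reactive astrocyte genes, 8 of 20 passed the filter. Here too TNC was the gene that fell, none rose, the median was -0.26, and 4 of the 8 were lower in all sevoflurane libraries. GFAP stood at 352, 300 and 224 CPM in sevoflurane libraries 1 to 3 and at 467, 511 and 489 CPM in control libraries 1 to 3. The log2 fold change was -0.74 ± 0.16 with an adjusted p of 0.478 by edgeR. Within subcluster 0 GFAP had 302 and 283 CPM in sevoflurane libraries 1 and 2, against 426 to 521 CPM in the control libraries, and in subcluster 1 it had 160 CPM in sevoflurane library 3, against 209 to 342 CPM in the control libraries. GFAP was also lower by value in each other cell set where it passed the filter on low counts. Its log2 fold change by edgeR was -1.46 in OPC, -1.22 in GABAergic neuron and -0.99 in glutamatergic neuron cells. It was -0.84 in oligodendrocyte and -0.53 in microglia cells, and none of these passed the test. In cells picked by OPC markers GFAP had 23.0, 10.6 and 1.41 CPM in sevoflurane libraries and 19.9, 29.96 and 47.7 CPM in control libraries, and these ranges overlap. The share of astrocytes with a GFAP UMI at 1000 UMIs was 27.0%, 24.2% and 15.97% in sevoflurane libraries and 29.0%, 36.4% and 31.8% in control libraries (exact permutation test, two-sided p = 0.1, the smallest possible). In glutamatergic neuron cells this share was 0.656 to 1.08% in sevoflurane and 0.919 to 2.32% in control libraries. The part of free RNA in the GFAP difference was not tested.

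**Figure D3:**
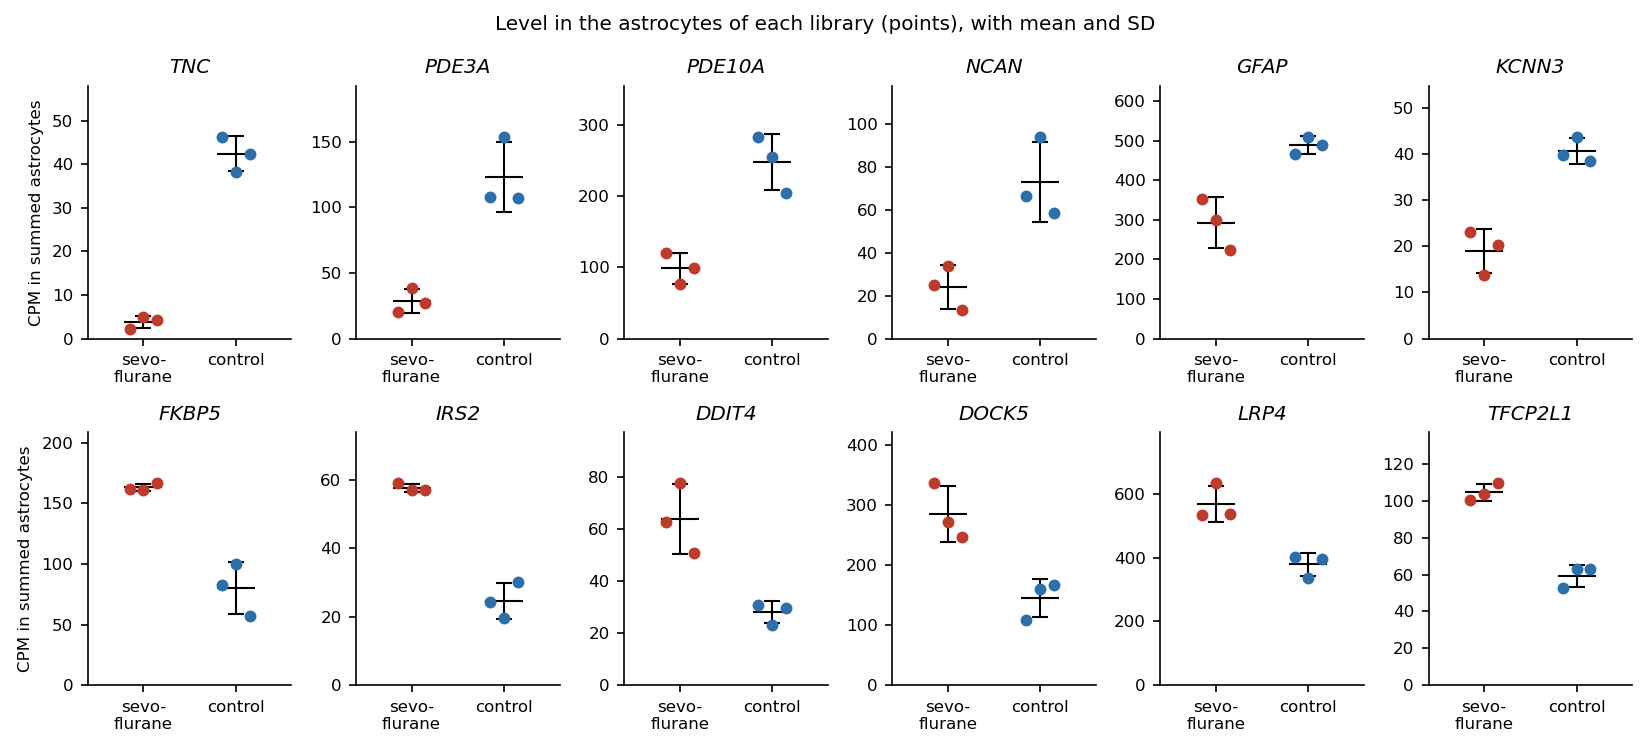
Level of 12 named genes in the summed astrocytes of each library, in CPM, with sevoflurane on the left (red) and control on the right (blue) of each panel; bars are the mean and SD over 3 libraries. In every panel the libraries of the groups do not overlap, and TNC alone had an adjusted p under 0.05.

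The enzymes of cyclic nucleotide signalling included the next lower genes. PDE3A, a phosphodiesterase that breaks down cAMP and cGMP, stood at 20.3, 38.2 and 27.0 CPM in sevoflurane libraries 1, 2 and 3 and at 108, 154 and 107 CPM in control libraries 1, 2 and 3. Every sevoflurane library lay below every control library, yet the gene missed the threshold (log2 -2.13 ± 0.24, edgeR adjusted p = 0.0745). Its adjusted p was 0.0130 without likely doublets, 0.0252 under a stricter selection of astrocytes, 0.0254 without the subclusters led by other cell types and 0.00609 with cells thinned to 1000 UMIs. Over all alternatives it ran from 3.46e-10 by DESeq2 to 0.2997 without sevoflurane library 1.

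In subcluster 0 PDE3A had 17.2 and 27.5 CPM in sevoflurane libraries 1 and 2, and 100, 143 and 102 CPM in control libraries 1, 2 and 3. In subcluster 1 it had 27.97 CPM in sevoflurane library 3, and 115, 216 and 130 CPM in control libraries 1, 2 and 3. The share of astrocytes with a PDE3A UMI at 1000 UMIs was 1.86%, 2.42% and 1.90% in sevoflurane libraries and 9.09%, 11.02% and 9.09% in control libraries (exact permutation test, two-sided p = 0.1, the smallest possible). The share in cells picked by oligodendrocyte markers was 1.06 to 2.42% in sevoflurane and 2.67 to 4.22% in control libraries, and in glutamatergic neuron cells it was 2.51 to 4.64% in sevoflurane and 2.64 to 7.64% in control libraries. In each sevoflurane library the share in astrocytes lay below that in glutamatergic neuron cells, and in sevoflurane library 2 it lay above that in oligodendrocyte cells. How much of the PDE3A signal in these cell sets is free RNA was not tested.

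PDE10A, a second phosphodiesterase of cAMP and cGMP, had 120, 77.1 and 98.8 CPM in sevoflurane libraries 1 to 3 and 284, 256 and 206 CPM in control libraries 1 to 3 (log2 -1.32 ± 0.19, edgeR adjusted p = 0.335). In glutamatergic neuron cells it had 445, 283 and 222 CPM in sevoflurane and 626, 731 and 636 CPM in control libraries (edgeR log2 -1.15). Its log2 fold change by edgeR was -0.64 in GABAergic neuron, -0.52 in microglia, -0.29 in OPC, -0.29 in endothelial and -0.03 in oligodendrocyte cells. None of these passed the test. How much of the PDE10A signal in astrocytes is free RNA was not tested. ADCY8, an adenylyl cyclase that makes cAMP, had 20.2 to 37.96 CPM in sevoflurane and 52.1 to 69.3 CPM in control astrocytes (log2 -0.97 ± 0.25). PDE3B, the close relative of PDE3A, overlapped between the groups, at 95.9 to 207 CPM in sevoflurane and 196 to 318 CPM in control astrocytes (log2 -0.79 ± 0.29). Of this list, 20 of 21 genes were tested, none passed, 5 were lower and none higher without overlap, and the median was -0.20. OPC are rich in PDE3A, and the OPC markers summed over astrocytes were lower after sevoflurane (1215 to 1451 CPM in sevoflurane and 1482 to 1624 CPM in control astrocytes). Most of that sum is PTPRZ1, which astrocytes also express. Cells picked by OPC markers had 8.47 to 28.9 CPM of NCAN in sevoflurane and 19.99 to 24.3 CPM in control libraries. These NCAN levels lie below the 58.6 to 94.4 CPM of control astrocytes. The part of OPC RNA in the PDE3A and NCAN values of astrocytes was not tested.

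FKBP5, IRS2 and DDIT4, of the glucocorticoid response list, were among the 10 higher genes with the smallest p. FKBP5, a co-chaperone that dampens the glucocorticoid receptor and is itself induced by it, stood at 162, 161 and 167 CPM in sevoflurane libraries 1, 2 and 3 and at 82.9, 99.8 and 57.3 CPM in control libraries 1, 2 and 3. The sevoflurane libraries were tightly grouped above all controls (fitted fold change 2.05, log2 1.04 ± 0.20), but the adjusted p was 0.422 by edgeR. By DESeq2 it was 0.0153, and over all alternatives it ran from 0.00324 with no filter on low counts to 0.904 with replicate numbers as a block.

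In subcluster 0 FKBP5 had 150 and 167 CPM in sevoflurane libraries 1 and 2, and 95.8, 106 and 50.9 CPM in control libraries 1, 2 and 3. In subcluster 1 it had 174 CPM in sevoflurane library 3, and 83.7, 13.5 and 56.5 CPM in control libraries 1, 2 and 3. At 1000 UMIs per cell an FKBP5 UMI was found in 14.3%, 14.9% and 14.1% of astrocytes of sevoflurane libraries 1 to 3 and in 7.85%, 8.75% and 5.57% of those of control libraries 1 to 3 (means 14.4 ± 0.463% and 7.39 ± 1.64%, SD, n = 3 each; exact permutation test, two-sided p = 0.1, the smallest possible). In glutamatergic neuron cells the share was 5.18%, 7.503% and 2.97% in sevoflurane libraries 1 to 3 and 5.93%, 2.53% and 4.79% in control libraries 1 to 3, below that in the astrocytes of the same library in each of the 6. Cells picked by microglia markers had 1673, 1726 and 2058 CPM in sevoflurane and 385, 414 and 352 CPM in control libraries (log2 2.28, edgeR adjusted p = 0.00164). Endothelial cells had a log2 fold change of 2.23 that did not pass. The part of free RNA in the astrocyte FKBP5 values was not tested.

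IRS2, an adaptor of the insulin receptor, stood at 59.1, 57.0 and 57.2 CPM in sevoflurane libraries 1 to 3 and at 24.4, 19.5 and 30.1 CPM in control libraries 1 to 3 (log2 1.22 ± 0.20, edgeR adjusted p = 0.417). DDIT4, a stress-induced inhibitor of mTORC1, stood at 62.9, 77.9 and 51.0 CPM in sevoflurane libraries and at 30.9, 23.1 and 29.9 CPM in control libraries (log2 1.18 ± 0.20, edgeR adjusted p = 0.417). Both genes separated the groups in each library. KLF9, a transcription factor induced by glucocorticoids, had 31.0 to 46.8 CPM in sevoflurane and 15.2 to 25.8 CPM in control astrocytes (log2 0.98 ± 0.26). CRISPLD2, a secreted protein induced by glucocorticoids, had 24.96 to 43.8 CPM in sevoflurane and 13.2 to 21.6 CPM in control astrocytes (log2 1.03 ± 0.27).

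Over the glucocorticoid list, 18 of 26 genes were tested and none passed. The fold change was positive in 14, the median log2 was 0.60 against 0.0075 over all genes, and 6 of the 18 were higher and none lower without overlap. SGK1, a kinase that glucocorticoids also induce, went the other way by value, with 22.4 to 52.0 CPM in sevoflurane and 47.7 to 70.1 CPM in control astrocytes (log2 -0.79 ± 0.30). The receptors themselves were near 0, with log2 fold changes of -0.02 for NR3C1 and 0.04 for NR3C2.

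Of 20 interferon-stimulated genes 12 were tested. Each of the 12 had a log2 fold change above 0, and their median was 0.49, but none passed the test. IFI6 had 6.76 to 13.1 CPM in sevoflurane and 2.34 to 5.06 CPM in control astrocytes (log2 1.31 ± 0.39), and IFIT1, which binds viral RNA, had 7.28 to 13.0 CPM in sevoflurane and 3.28 to 6.03 CPM in control astrocytes (log2 1.04 ± 0.35). These and HERC5 were among 4 genes of the list that were higher without overlap, and none was lower. The list's smallest log2 fold change was 0.05, for STAT2.

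**Figure D4:**
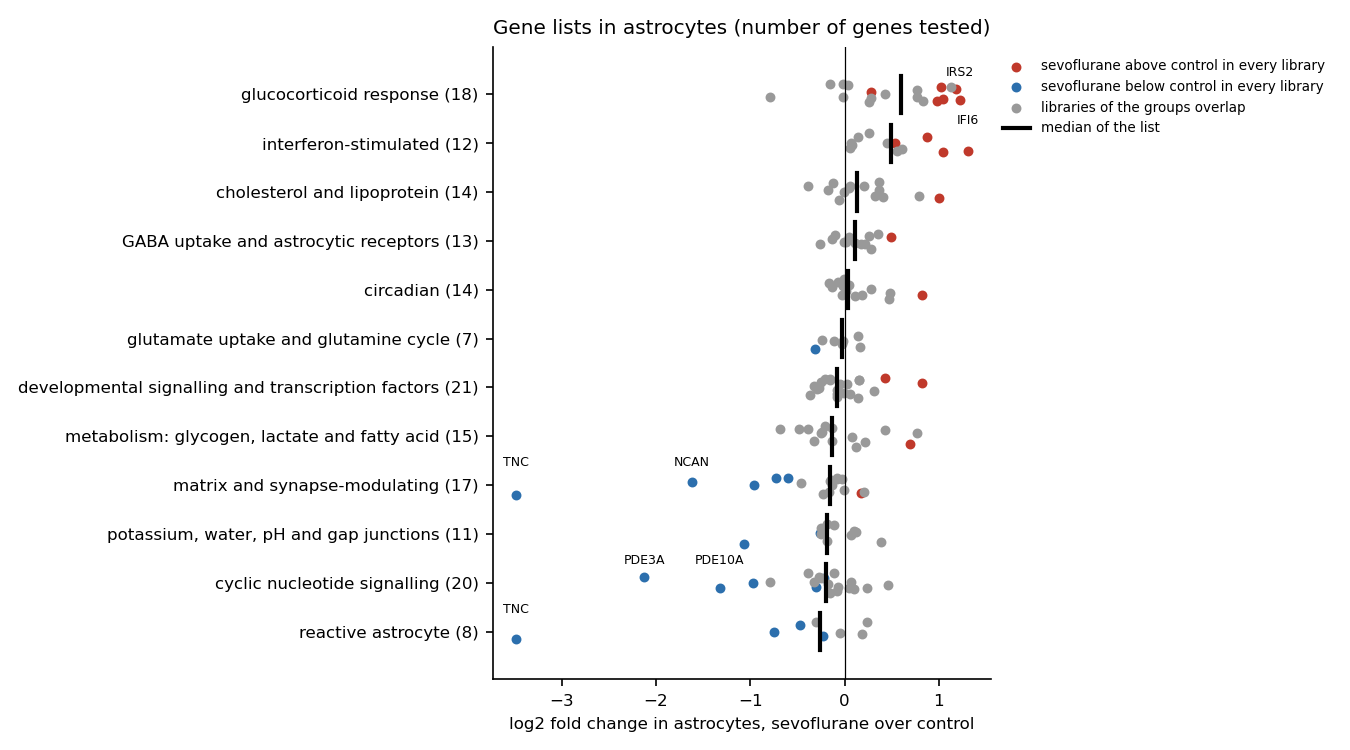
Log2 fold change in astrocytes, sevoflurane over control, of each tested gene in 12 lists without the rule genes, with the number of genes in brackets and a black bar at the median. The glucocorticoid and interferon lists have medians of 0.60 and 0.49, the other 10 lie between -0.26 and 0.13; no gene other than TNC passed the test.

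The rule genes SLC1A2, SLC1A3, SLC4A4, ACSBG1 and GLI3 are left out of the lists that follow, since they chose the cells. Of the glutamate uptake and glutamine list, 7 of the other 10 genes were tested, none passed and the median log2 fold change was -0.03. GLUL, glutamine synthetase, had 169 to 199 CPM in sevoflurane and 161 to 216 CPM in control astrocytes. GLUD1, glutamate dehydrogenase, was the gene of this list without overlap, at 215 to 256 CPM in sevoflurane and 279 to 321 CPM in control astrocytes (log2 -0.32 ± 0.12).

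Of the potassium, water, pH and gap-junction genes, 11 of 15 were tested, none passed, and the median was -0.18. KCNN3, a small-conductance calcium-activated potassium channel, had 23.0, 13.7 and 20.3 CPM in sevoflurane libraries and 39.8, 43.7 and 38.4 CPM in control libraries (log2 -1.07 ± 0.22, edgeR adjusted p = 0.478). AQP4 overlapped between the groups, at 54.6 to 118 CPM in sevoflurane and 82.0 to 110 CPM in control astrocytes. Of the GABA uptake and receptor genes, 13 of 15 were tested, none passed and the median was 0.11. SLC6A11, the GABA transporter GAT-3, had 191 to 244 CPM in sevoflurane and 128 to 165 CPM in control astrocytes (log2 0.49 ± 0.14, edgeR adjusted p = 0.638).

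None of the genes of metabolism, cholesterol, clock or developmental signalling passed either. In the metabolic list 15 of 17 were tested with a median of -0.14, and LPL, lipoprotein lipase, was higher without overlap (22.4 to 32.4 CPM in sevoflurane and 13.4 to 20.1 CPM in control astrocytes). In the cholesterol list 14 of 18 were tested with a median of 0.13, and the synthesis enzyme HMGCS1 had 9.85 to 21.6 CPM in sevoflurane and 6.30 to 9.37 CPM in control astrocytes (log2 1.00 ± 0.34). Of the clock genes 14 of 17 were tested, with a median of 0.03. Among developmental factors, 21 of 25 were tested with a median of -0.08, and 2 were higher without overlap. TFCP2L1, a transcription factor, had 101, 104 and 110 CPM in sevoflurane libraries and 52.5, 62.9 and 62.7 CPM in control libraries (log2 0.82 ± 0.14, edgeR adjusted p = 0.417). The growth factor receptor FGFR3 had 252 to 283 CPM in sevoflurane and 183 to 221 CPM in control astrocytes (log2 0.43 ± 0.12). Only 2 of 13 immediate early genes were abundant enough to test, NR4A3 at log2 -0.97 ± 0.48 and NR4A1 at -0.28 ± 0.39.

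Outside these lists, 4 named genes were higher by value, and their groups did not overlap. DOCK5, an activator of the GTPase RAC, had 246 to 336 CPM in sevoflurane and 108 to 166 CPM in control astrocytes (log2 0.97 ± 0.19). LRP4, a receptor for agrin, had 536 to 635 CPM in sevoflurane and 338 to 404 CPM in control astrocytes (log2 0.59 ± 0.12). FOLH1, the peptidase that releases glutamate from N-acetylaspartylglutamate, had 135 to 206 CPM in sevoflurane and 91.1 to 109 CPM in control astrocytes (log2 0.80 ± 0.17). ASB3 had 178 to 232 CPM in sevoflurane and 104 to 125 CPM in control astrocytes (log2 0.86 ± 0.15).

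On the lower side the other 5 named genes also separated the groups without passing. CPNE2, a calcium-dependent membrane-binding protein, had 42.1 to 55.3 CPM in sevoflurane and 75.9 to 102 CPM in control astrocytes (log2 -0.93 ± 0.17). ADGRV1, a large adhesion receptor, had 230 to 289 CPM in sevoflurane and 385 to 474 CPM in control astrocytes (log2 -0.73 ± 0.14). NKD1, an inhibitor of Wnt signalling, had 7.93 to 10.9 CPM in sevoflurane and 20.6 to 29.6 CPM in control astrocytes (log2 -1.37 ± 0.27). BCL7C, a subunit of chromatin-remodelling complexes, and the keratin KRT83 had log2 fold changes of -1.004 ± 0.20 and -1.06 ± 0.22, and their libraries did not overlap.

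Whether astrocytes responded differently from related glia was tested on differences within each library, between the summed astrocytes and the cells picked by oligodendrocyte or OPC markers, with limma. These cells were chosen by at least 3 detected markers of their type, and numbered 8568 oligodendrocyte and 2457 OPC barcodes. Against oligodendrocytes none of 10979 genes passed (0%), with 754, or 6.87%, at an unadjusted p under 0.05. FKBP5 was at log2 1.06 in astrocytes and 1.13 in oligodendrocytes, a difference of -0.07 ± 0.26 (SE, limma adjusted p = 0.983). Without control library 2 this log2 difference was 0.27, so its sign turned. IRS2 was at 1.22 in astrocytes and 0.16 in oligodendrocytes, a difference of 1.06 ± 0.23 that did not pass (limma adjusted p = 0.309), and PDE10A at -1.34 in astrocytes and -0.04 in oligodendrocytes (difference -1.30 ± 0.29, limma adjusted p = 0.318).

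Against OPC, 2 of 10194 genes passed, or 0.0196%, and 573, or 5.62%, had an unadjusted p under 0.05. PDE3A was at -2.10 in astrocytes and -0.01 in OPC, a difference of -2.09 ± 0.22 (limma adjusted p = 0.00695). Its level in OPC was 306, 349 and 284 CPM in sevoflurane libraries and 290, 296 and 344 CPM in control libraries, and these ranges overlap. Without control library 1 the difference was -2.12 with a limma adjusted p of 0.0822. Cells picked by oligodendrocyte markers had lower PDE3A in all sevoflurane libraries, at 30.9, 11.8 and 23.8 CPM, than in the control libraries, at 53.1, 37.4 and 61.6 CPM. Against these cells the PDE3A difference was -0.84 ± 0.50 and did not pass (limma adjusted p = 0.829). GABAergic neuron cells had 243, 394 and 63.7 CPM in sevoflurane and 404, 602 and 821 CPM in control libraries (edgeR log2 -1.44). The edgeR log2 fold change of PDE3A was -0.75 in glutamatergic neuron, -0.57 in microglia and -0.25 in endothelial cells. No fall of PDE3A in these other sets passed the test.

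TENM2, a teneurin adhesion protein of neurons and synapses, was at 0.31 in astrocytes and -0.69 in OPC, a difference of 1.01 ± 0.13 (limma adjusted p = 0.0452). In astrocytes themselves it had 987, 639 and 1524 CPM in sevoflurane libraries 1 to 3 and 854, 780 and 755 CPM in control libraries 1 to 3, so the groups overlap, and it did not pass there (edgeR log2 0.42 ± 0.28). In OPC it had 915, 617 and 1199 CPM in sevoflurane libraries and 1353, 1349 and 1484 CPM in control libraries. The TENM2 call was lost in each omission of a library except sevoflurane library 3, with limma adjusted p of 0.0772 to 0.459. Without sevoflurane library 3 the number of calls against OPC was 17.

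**Figure D5:**
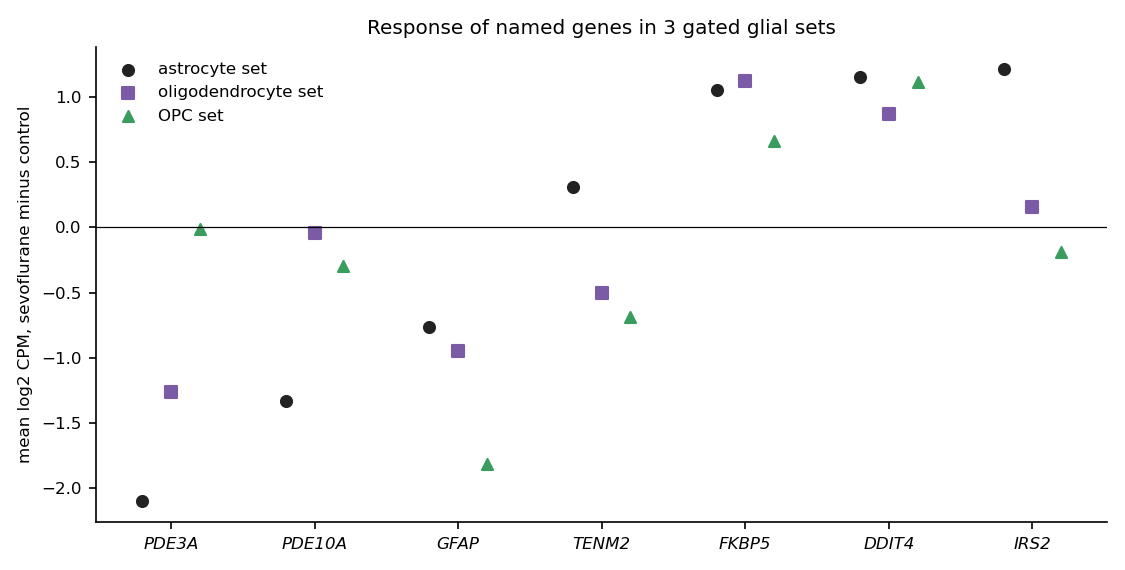
Difference in mean log2 CPM, sevoflurane minus control, of 7 named genes in astrocytes (circles), oligodendrocyte-marker cells (squares) and OPC-marker cells (triangles). PDE3A is at -2.10 in astrocytes and -0.01 in OPC; FKBP5 is at 1.06 in astrocytes, 1.13 in oligodendrocytes and 0.66 in OPC.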

How the data were processed

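UMI counts per gene and barcode of 3 sevoflurane and 3 control libraries were made with Cell Ranger 6.1.1 per the file headers and are deposited as unnormalised counts. CASAVA 1.8 and Seurat are also named in the submitters' processing notes. The genome build is not given in the sources used here. No barcode has under 500 UMIs, and a further cell filter by the authors is not given.

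Of 29320 genes, 15188 are named in the files, 1347 were named from a table of gene IDs, and 12785 keep their ID. The astrocyte rule was applied to raw counts. Doublets were scored with scrublet in each library (median threshold 0.19; 3.23 to 5.81% of astrocytes above it); they were kept, and left out as an alternative, because the automatic threshold marked 0.150% in sevoflurane library 2. Subclusters came from 2000 variable genes, 30 components and Leiden clustering at resolution 0.3 (scanpy 1.11.5). Summed counts were tested with edgeR 4.0.16 after its filter on low counts and TMM scaling, with Benjamini-Hochberg adjustment over all genes tested. DESeq2 1.42.0 was an alternative. Response differences used limma 3.58.1 on log2 CPM with a prior count of 2. On simulated counts with the depth of these sums the edgeR step was checked before use. Library totals were 41164947 to 47886816 UMIs over all barcodes.

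The other cell sets needed at least 3 markers of 1 list, at least 20 UMIs of it per 10000 and fewer than 4 rule genes. Genes were named by rule: all called genes, then by smallest p until 10 had a name in each direction, with FKBP5, TNC, PDE3A, GFAP, the rule genes and, from each list, genes by smallest p or by value; CPM are not corrected for length, and levels are compared only within a gene. Some genes that this rule picks are not reported here. The astrocyte rule and the gene lists were chosen with earlier results of these data known.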

Additional observations from a re-analysis of the deposited data

Results flagged for a closer look

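The response of PDE3A to sevoflurane differed between astrocytes and OPC-marker cells by -2.09 on the log2 scale (SE 0.22, limma adjusted p = 0.00695), with log2 responses of -2.10 in astrocytes and -0.01 in OPC. It was flagged because the difference itself passed a test. Against oligodendrocyte-marker cells the PDE3A difference was -0.84 (SE 0.50) and did not pass (limma adjusted p = 0.829). TENM2 was flagged because its difference from OPC also passed, at 1.01 (SE 0.13, limma adjusted p = 0.0452). Its responses were 0.31 in astrocytes and -0.69 in OPC. TENM2 was lower after sevoflurane by value in every other cell set too, with log2 fold changes of -0.47 in oligodendrocyte, -0.61 in microglia, -0.73 in glutamatergic neuron, -0.61 in GABAergic neuron and -0.49 in endothelial cells by edgeR.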

How the results depend on the processing

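The difference in the share of barcodes kept its direction in all alternatives, from -6.42 to -4.59 percentage points over the other selections and from -6.75 to -4.08 when 1 library was left out. Since the groups do not overlap in this share, leaving out 1 library could not turn its direction. The limit of 1 UMI of the 5 excluded genes was not varied in these selections. The count of 1 gene was 2 under the stricter rule, without likely doublets, with cells thinned to 1000 UMIs and without the subclusters led by other cell types. It was 16 by DESeq2, 96 when genes with low counts were not filtered, 0 with the replicate block, 5 without sevoflurane library 3 and control library 1 together, and 0 to 2 when 1 library was left out; the cause was not tested. In subcluster 0 alone the called gene was PDE3A, and TNC did not pass. All 20 genes named by p kept their sign without sevoflurane library 3 and control library 1, and in subcluster 0 alone. Both of these alternatives and the one without the subclusters led by other cell types were chosen after seeing the data. The 20 genes were picked by p in these same libraries and their groups do not overlap. Leaving libraries out could therefore hardly turn a sign, and the kept signs are no independent check. Over 378 values of 21 named genes no direction turned, 38 passed the threshold that had not and 5 lost it, all 5 of them for TNC. The groups do not overlap for these 21 genes, which left little room for a direction to turn. Against oligodendrocytes 1 gene passed with the replicate block and 0 to 1 when 1 library was left out, and the FKBP5 difference of -0.07 lay between -0.37 and 0.27, above 0 without control library 2. Against OPC 1 gene passed with a prior count of 0.5, 1 with the replicate block, and 0 to 17 when 1 library was left out. Differences in the share of astrocytes with a UMI kept their direction in all alternatives, within 5.45 to 16.2 percentage points for FKBP5, -6.40 to -2.01 for TNC, -13.5 to -3.60 for PDE3A and -14.1 to -6.79 for GFAP. The groups do not overlap in these shares either, so leaving out 1 library could not turn a direction. The labels do not say whether replicate numbers pair the libraries. Deviations of same-numbered libraries correlated at -0.07, -0.06 and -0.24, which cannot decide this with 3 libraries a group. With the replicate block TNC had an edgeR adjusted p of 0.143 and TENM2 against OPC a limma adjusted p of 0.194. The astrocyte share with replicate numbers as pairs, the replicate block, gave -5.33 points (exact sign-flip test, two-sided p = 0.25, the smallest possible). With 3 libraries a group the exact tests cannot pass 0.05, and TNC in sevoflurane astrocytes rests on 4 to 8 UMIs a library.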
